A study of Mus musculus with 4 samples.

Results

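The troponin genes Tnnc1, Tnnc2, Tnni1, Tnni2, Tnni3, Tnnt1, Tnnt2 and Tnnt3 were followed in quadriceps muscle of wild-type mice (WT) and of mice with transgenes for both NF90 and NF45 (NF90-NF45 double transgenic, dbTg). They are 8 of the 22180 genes that the array's annotation names on their own. They were chosen as the fast, slow and cardiac isoforms of the 3 troponin subunits, with earlier results of these data known. Each was read by 1 row of the table. The RNA of 4 mice, 1 mouse per array, was hybridised to Affymetrix whole-transcript arrays. The WT group held a male of 17 to 18 weeks (replicate 1) and a female of 16 weeks (replicate 2), and the dbTg group held a male (replicate 1) and a female (replicate 2) of 16 weeks. Sex and replicate number therefore coincide, and WT replicate 1 also differs in age. The labels do not name the promoter that drives the transgenes. The question of the study was how the mRNA profile of quadriceps differs between the genotypes.

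Troponin is the calcium switch of the thin filament in striated muscle. Troponin C binds calcium, troponin I holds actin and myosin apart at rest, and troponin T ties the complex to tropomyosin. Fast fibres use Tnnc2, Tnni2 and Tnnt3, slow fibres use Tnnc1, Tnni1 and Tnnt1, and adult heart muscle uses Tnnc1, Tnni3 and Tnnt2. Tnnt2 and Tnni1 are also known from developing and regenerating skeletal muscle.

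Values are log2 expression values from robust multi-array averaging (RMA), so a difference of 1 is a doubling. A difference is the dbTg mean minus the WT mean, each SD is taken over a group's 2 arrays, and intervals are 95% intervals from limma. A gene is said to have risen or fallen where its limma p-value, adjusted by the Benjamini-Hochberg method over 13308 tested genes, was under 0.05. Each row has its own response, so levels of different rows were not compared as amounts; where rows are combined, only the change of the combined value between arrays is read. Ilf2, which encodes NF45, read 5.03 and 5.04 in WT and 10.36 and 10.16 in dbTg (difference 5.23, SE 0.14, limma adjusted p = 7.17e-05), which matches the labels. The labels do not say whether its probes detect the transgene. The array medians lay between 1.55 and 1.60, while the upper quartiles were 2.80 and 2.78 in WT and 2.99 and 2.98 in dbTg. The markers of skeletal muscle, such as Acta1, Ckm and Ttn, read 8.30 to 11.16 on all arrays.

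Of the 8 troponin genes, 1 rose in dbTg muscle, the cardiac troponin T gene Tnnt2, and 0 fell in limma (0 also at an unadjusted p under 0.05). Among all tested genes 2.01% rose and 0.203% fell, or 2.21% together. The promoter of Tnnt2 is shown because it belongs to the member that rose, and that of Tnnc1, a slow member that was not called, because it was the only other one to hold the same muscle motif. Both are from RefSeq (GRCm38.p6, plus strand) and run 5′ to 3′ up to the base before the gene's first annotated base, at chr1:135836084-135836314 for Tnnt2 and chr14:31208062-31208311 for Tnnc1. The Tnnt2 stretch stops 19 bases before the annotated start that its 250-base window was counted from, and the Tnnc1 stretch is its whole window. Capitals mark the MCAT motif, CATTCC or its reverse complement GGAATG, and E-boxes, CANNTG, with no overlap between them.
Tnnt2: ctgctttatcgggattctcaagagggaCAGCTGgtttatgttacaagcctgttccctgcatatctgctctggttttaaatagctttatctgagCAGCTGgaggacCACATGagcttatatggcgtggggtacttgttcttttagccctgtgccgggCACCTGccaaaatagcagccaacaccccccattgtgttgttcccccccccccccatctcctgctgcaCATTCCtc
Tnnc1: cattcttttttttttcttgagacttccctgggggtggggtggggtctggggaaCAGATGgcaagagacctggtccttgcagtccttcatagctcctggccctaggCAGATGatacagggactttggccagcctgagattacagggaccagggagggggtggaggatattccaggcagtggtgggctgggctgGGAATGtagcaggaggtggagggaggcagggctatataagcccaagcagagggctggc

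MCAT motifs are bound by TEAD factors and E-boxes by myogenic factors such as MyoD and myogenin. Promoters were found for 6 of the 8 genes, in 8 windows, with 2 annotated starts each for Tnni1 and Tnnt2, and none for Tnni2 and Tnnt3. In the 250 bases before the start, the MCAT motif was found on either strand in 2 of the 8 windows, 1 of Tnnt2 and that of Tnnc1, and in 12.6% of 32851 windows of this length over all genes. The E-box was found in 8 of the 8 windows and in 66.2% of all windows. The 2 windows of Tnni1 overlap, and the 2 E-boxes of the second are also in the first, so the 8 are not separate stretches. The MEF2 and CArG motifs were found in 0 of the 8 windows, and in 2.92% and 1.47% of all windows. This Tnnt2 window held 4 E-boxes and 1 MCAT motif, and the Tnnc1 window held 2 and 1. A match of letters describes the window and shows no binding.

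**Figure D1:**
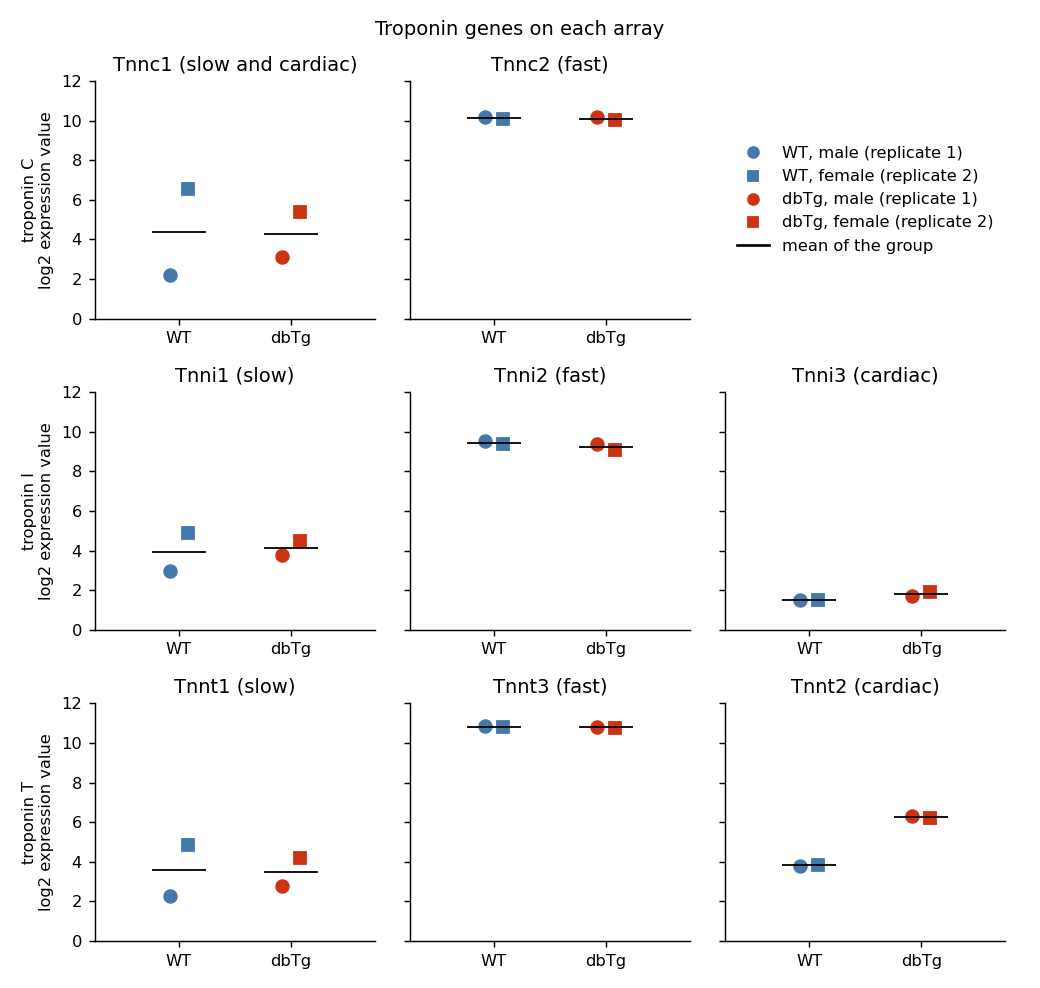
Log2 expression value (vertical axis) of each troponin gene on the 4 arrays, with circles for males, squares for females, and a line at each group's mean. Rows of panels are the C, I and T subunits; Tnnt2 is higher on both dbTg arrays (6.19 and 6.33) than on both WT arrays (3.77 and 3.85), and the slow genes are spread by sex within each genotype.

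Tnnt2 read 3.77 (male) and 3.85 (female) in WT, against 6.33 (male) and 6.19 (female) in dbTg. Both dbTg arrays were far above both WT arrays, and the arrays of a group lay close together, with SDs of 0.05 in WT and 0.10 in dbTg (n = 2 each). The difference was 2.45 (SE 0.18, interval 2.03 to 2.87, limma adjusted p = 0.00309), which is 5.46-fold higher in dbTg, with an interval of 4.08 to 7.31-fold. Between the male animals it was 2.56, and between the female animals 2.34. Tnnt2 stood at rank 12 of the 13308 tested genes by p-value and at rank 51 by size of increase. With dbTg replicate 1 left out the difference was 2.38 and the call was lost (limma adjusted p = 0.0795), and with dbTg replicate 2 left out it was 2.52 (limma adjusted p = 0.0900); the remaining dbTg array is then assumed to vary like the WT arrays. In whole muscle, fewer or more cells of a type and less or more RNA per cell cannot be told apart.

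The other cardiac isoform, Tnni3, was read near the level below which genes were not tested, 1.48. Its values were 1.49 and 1.51 in WT and 1.70 and 1.89 in dbTg. Both dbTg arrays were above both WT arrays, which held for 33.7% of all tested genes. The difference of 0.30 was not called (SE 0.18, interval -0.13 to 0.73, limma adjusted p = 0.435). The WT values lay below the median of their arrays, so the row was too dim to bound the change of the gene.

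**Figure D2:**
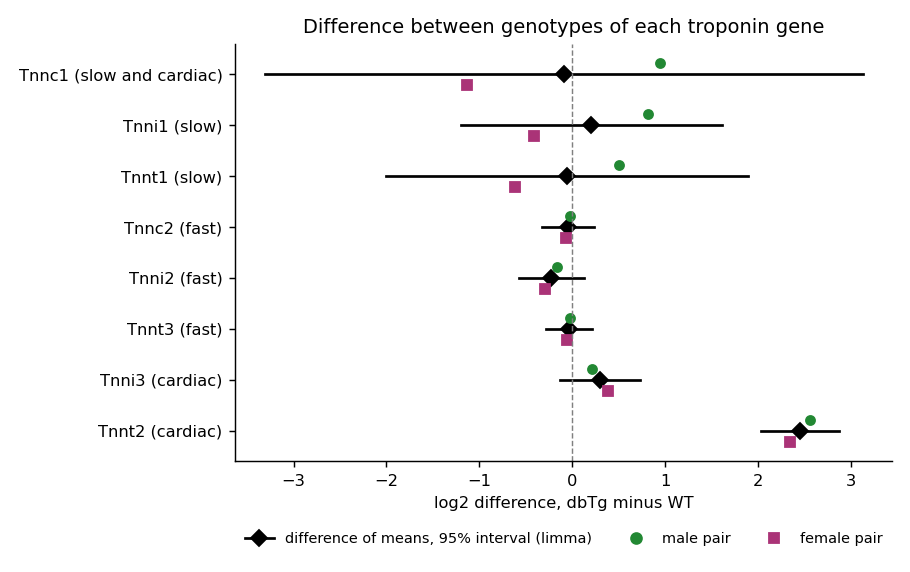
Log2 difference, dbTg minus WT (horizontal axis), for the 8 troponin genes: diamonds and bars are the difference of means with its 95% interval, circles the male pair and squares the female pair. The interval of Tnnt2, 2.03 to 2.87, is the one that lies apart from 0; the fast genes have narrow intervals around 0 and the slow genes wide ones.

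The fast isoforms, which make up the troponin of the fast fibres that dominate mouse quadriceps, stayed within a narrow range. Tnnc2, the fast troponin C, read 10.20 and 10.10 in WT and 10.18 and 10.04 in dbTg. Tnnt3, the fast troponin T, read 10.84 and 10.80 in WT and 10.82 and 10.74 in dbTg. The groups overlapped for both genes. The difference was -0.04 for Tnnc2 (interval -0.32 to 0.24, limma adjusted p = 0.887) and also -0.04 for Tnnt3 (interval -0.29 to 0.21, limma adjusted p = 0.888).

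Tnni2, the fast troponin I, read 9.52 and 9.36 in WT and 9.36 and 9.07 in dbTg. The groups met at 9.36, where the WT female and the dbTg male nearly coincided. Its difference was -0.23 (SE 0.15, interval -0.57 to 0.12, limma adjusted p = 0.465) and was not called. The 3 fast rows ranked at the 99.7 to 99.9 percentile of all genes by mean value, and whether rows this bright respond less to a change in RNA was not tested. The 3 fast differences were negative, while the median over all tested genes was 0.09, and Tnnc2 turned positive with WT replicate 1 left out (0.01) or dbTg replicate 2 left out (0.03), as did Tnnt3 in the second case (0.0007).

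The slow isoforms differed between the animals of a group far more than between the genotypes. Tnnc1, the troponin C of slow fibres and heart, read 2.19 (male) and 6.54 (female) in WT, and 3.14 and 5.41 in dbTg. Tnnt1, the slow troponin T, read 2.29 and 4.83 in WT and 2.79 and 4.21 in dbTg. Tnni1, the slow troponin I, read 2.98 and 4.91 in WT and 3.80 and 4.50 in dbTg. In all 3 genes the WT arrays were the lowest and the highest of the 4, and the dbTg arrays lay between them.

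None of the slow genes was called between genotypes. The differences were -0.09 for Tnnc1 (SE 1.35, limma adjusted p = 0.982), -0.06 for Tnnt1 (SE 0.82, limma adjusted p = 0.982) and 0.20 for Tnni1 (SE 0.59, limma adjusted p = 0.898). As a ratio of dbTg to WT, the intervals run from 0.101 to 8.71 for Tnnc1, from 0.250 to 3.71 for Tnnt1 and from 0.436 to 3.04 for Tnni1. They are too wide to show that the slow genes were equal in the 2 genotypes. This fit counts the gap between the animals of a group as spread. With the replicate number as a block, the log2 intervals were narrower, at -1.35 to 1.17 for Tnnc1, -0.88 to 0.77 for Tnnt1 and -0.65 to 1.06 for Tnni1. These are also too wide to show equal levels. In all 3 genes the dbTg animal was higher among the males and lower among the females, a change of sign that was found for 36.4% of all tested genes. Their signs changed with the array left out, from -2.27 to 2.09 for Tnnc1, from -1.33 to 1.21 for Tnnt1 and from -0.76 to 1.17 for Tnni1. Tnnc1 and Tnnt1 turned positive without WT replicate 2 or dbTg replicate 1, and Tnni1 turned negative without WT replicate 1 or dbTg replicate 2.

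**Figure D3:**
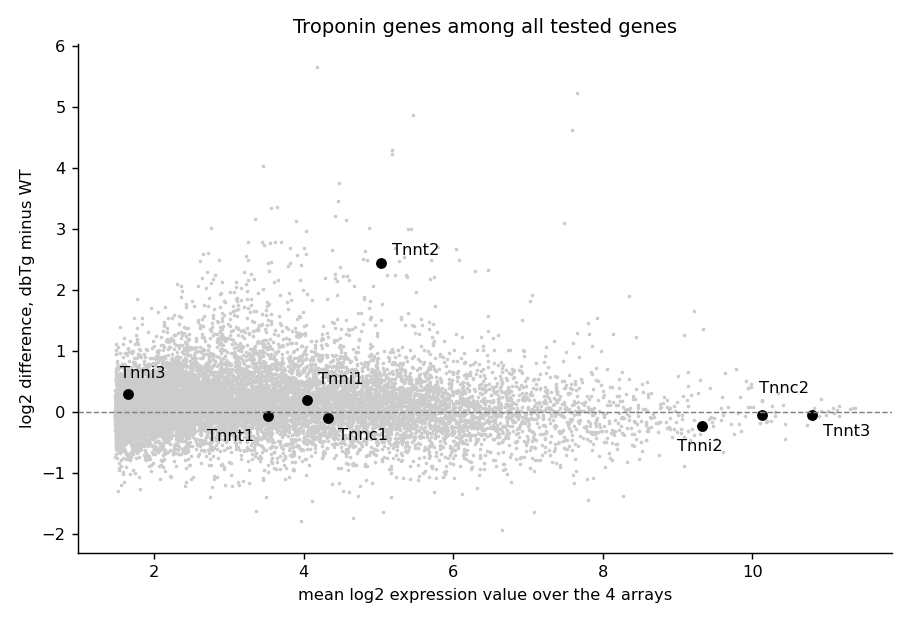
Log2 difference, dbTg minus WT (vertical axis), against the mean log2 expression value over the 4 arrays (horizontal axis), with a grey point for each of the 13308 tested genes and black points for the troponin genes. Tnnt2 lies at 2.45 above the main cloud, and the other 7 troponin genes lie between -0.23 and 0.30.

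Within each genotype, the female array was above the male array for all 3 slow troponin genes and below it for all 3 fast ones. Over all tested genes, 23.5% were higher in the female of both genotypes and 26.2% lower. For Tnnc1 the female exceeded the male by 4.36 in WT, which is 20.5-fold, and by 2.27 in dbTg, which is 4.84-fold. The excess was 2.54 in WT and 1.42 in dbTg for Tnnt1, and 1.92 and 0.70 for Tnni1. For the fast genes the female was lower by small amounts, for Tnni2 by -0.16 in WT and -0.29 in dbTg. This comparison was chosen after the values were seen.

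With genotype in the model, the female minus male difference was 3.32 for Tnnc1 (SE 0.50), 1.98 for Tnnt1 (SE 0.33) and 1.31 for Tnni1 (SE 0.34). None passed the threshold after adjustment over all genes (limma adjusted p = 0.975 for each). In that model 0.0150% of genes were called higher and 0.0150% lower in females. The 2 genes called higher were Xist (difference 5.18, limma adjusted p = 0.0177) and the slow myosin gene Myh7 (difference 3.85, limma adjusted p = 0.0320). Sex, replicate number and, within WT, age cannot be told apart in these 4 animals, nor can differences in which part of the muscle was taken.

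Other genes of slow fibres were split by sex in the same direction. Of the 10 tested genes of a slow fibre list, which holds no troponin, 8 were higher in the female of both genotypes and 0 were lower in both. Myh7, the slow myosin heavy chain, read 2.30 (male) and 6.29 (female) in WT, and 1.62 and 5.33 in dbTg. Myl3, a slow and ventricular light chain, read 1.58 and 4.87 in WT and 1.61 and 3.34 in dbTg. Tpm3, the slow tropomyosin, read 2.32 and 3.71 in WT and 1.91 and 3.06 in dbTg.

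A female value at least 2-fold above the male value in both genotypes was found for 16 of the 13308 genes, or 0.120%. They included Tnnc1 and Tnnt1, the slow fibre genes Myh7, Myl3 and Tpm3, the oxidative fast myosin Myh2 and the muscle LIM protein gene Csrp3. Xist, which marks the inactive X chromosome of females, was also among them. Tnni1 was outside this set through its dbTg pair, at 0.70.

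**Figure D4:**
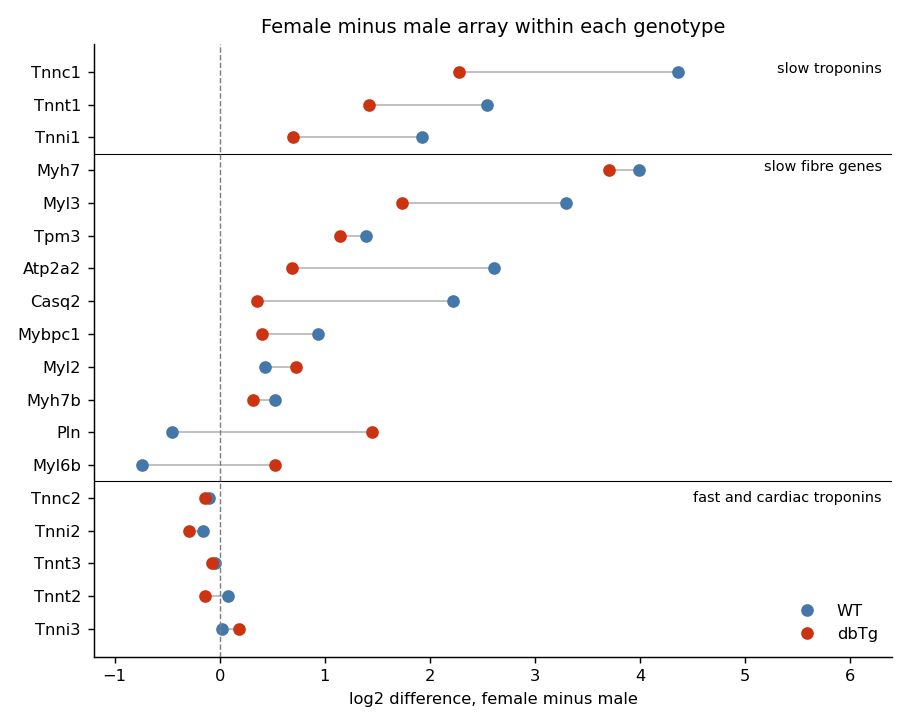
Log2 difference, female minus male (horizontal axis), in WT and dbTg for the slow troponin genes, the 10 tested genes of the slow fibre list, and the fast and cardiac troponin genes. The slow troponin genes lie between 0.70 and 4.36, and the fast and cardiac ones between -0.29 and 0.19.

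No gene of the fast or slow fibre lists was called between the genotypes. In limma, 0 of the 10 tested slow fibre genes and 0 of the 12 tested fast fibre genes passed the threshold. Before adjustment, 1 slow gene was higher, 1 slow gene lower and 1 fast gene higher at p under 0.05. The median difference was 0.05 for the slow list and 0.03 for the fast list, against 0.09 over all tested genes. Casq2, the slow and cardiac calsequestrin that stores calcium, read 4.89 ± 1.57 in WT and 6.63 ± 0.25 in dbTg (SD, n = 2 each; difference 1.73, limma adjusted p = 0.206). It was called with WT replicate 2 left out, at 2.84 (limma adjusted p = 0.00042). Myh7b, an ancient slow-type myosin, differed by -0.88 (limma adjusted p = 0.135), and by -1.14 with a call when WT replicate 1 was left out (limma adjusted p = 0.0404). Myh1, the myosin of fast intermediate fibres, differed by 0.51 (limma adjusted p = 0.191) and Pgam2, the muscle phosphoglycerate mutase, by -0.36 (limma adjusted p = 0.268).

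Within each subunit, the change of the slow or cardiac isoform was set against the change of the fast isoform on the same arrays. The log2 value of one row minus that of the other was taken on each array, and the change of this value between groups was tested with an exact two-sided permutation test, in which 2 arrays against 2 cannot give a p below 0.333. Of the 5 such comparisons, the change of Tnnt2 over that of Tnnt3 was 2.49, at 2.58 between males and 2.40 between females (exact permutation p = 0.333, adjusted p = 0.833). Both dbTg arrays lay above both WT arrays in this comparison. Tnni3 over Tnni2 changed by 0.52 (exact permutation p = 0.333, adjusted p = 0.833), but rests on the dim Tnni3 row and gives no size for the gene.

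The slow isoforms gave no such separation of the groups. Tnnc1 over Tnnc2 changed by -0.05, Tnni1 over Tnni2 by 0.43 and Tnnt1 over Tnnt3 by -0.02 (exact permutation p of 1 for each). In each of these 3 comparisons the WT arrays enclosed the dbTg arrays on both sides, apart by SDs of 3.15, 1.48 and 1.83 in WT (n = 2).

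Troponin I and troponin T genes lie in pairs in the genome, and among the members of these pairs Tnnt2 alone was called. In the RefSeq annotation of GRCm38.p6, Tnni1 and Tnnt2 lie on chromosome 1 with 1 protein-coding gene, Lad1, between them, and Tnni2 and Tnnt3 on chromosome 7 with 1, Lsp1, between them. Tnnt1 and Tnni3 are next to each other on chromosome 7. Tnnt2 rose by 2.45, while its neighbour Tnni1 differed by 0.20 with the wide interval given above. The fast pair differed by -0.23 (Tnni2) and -0.04 (Tnnt3), and the pair of Tnnt1 and Tnni3 by -0.06 and 0.30. The difference between the members of a pair was not tested.

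Tropomyosin, to which troponin T binds, was not called. Tpm1, the fast and cardiac form, differed by -0.11, Tpm2, known from both fibre types, by -0.05, and Tpm4, a form known from cells outside the sarcomere as well, by 0.30 (limma adjusted p = 0.777, 0.874 and 0.637). Tpm3 differed by -0.53 (limma adjusted p = 0.652), turned to 0.17 without WT replicate 2, 0.05 without dbTg replicate 1 and 0.10 with the mean of its rows, and was higher in both females, as the slow troponins were.

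Among 13 genes for thin filament actins, nebulins, filament caps and their chaperones, 0 passed the threshold in limma. Before adjustment, 5 were higher at p under 0.05 and 0 were lower, and the median difference was 0.19. Klhl40, which protects thin filament proteins from breakdown, read 3.54 and 3.47 in WT and 4.67 and 4.31 in dbTg (difference 0.99, limma adjusted p = 0.0742). Cfl2, the muscle cofilin that trims actin filaments, differed by 0.47 (limma adjusted p = 0.0885). Lmod3 and Lmod2, leiomodins that lengthen thin filaments, differed by 0.81 and 1.27 (limma adjusted p = 0.125 and 0.199), and Actc1, the cardiac actin, by 0.65 (limma adjusted p = 0.108).

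Part of the cardiac and embryonic sarcomere genes moved with Tnnt2. Of 10 listed genes, 9 were on the array under their own name, 6 were tested, 2 rose and 0 fell. The filter takes the mean of all arrays, so a gene low in WT was tested only if it was high in dbTg, and the count is not evidence for the list. Myh3, the embryonic myosin heavy chain, read 1.82 and 1.06 in WT and 5.41 and 5.52 in dbTg (difference 4.03, limma adjusted p = 0.00309). Its WT mean of 1.44 lay under the filter. Myl4, the embryonic and atrial light chain, read 2.27 and 2.18 in WT and 3.61 and 3.55 in dbTg (difference 1.36, limma adjusted p = 0.0333).

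The other tested genes of this list, which include Actc1 given above, were not called. Myh8 and Csrp3 had wide spreads within WT, with SDs of 1.23 and 2.42 (n = 2). Myh8, the perinatal myosin, differed by 2.40 (limma adjusted p = 0.0723), with 3.45 and 1.72 in WT and 5.14 and 4.83 in dbTg. Csrp3 differed by 2.50 (limma adjusted p = 0.257), with 2.75 and 6.17 in WT and 6.25 and 7.66 in dbTg. Mybpc3, the cardiac myosin-binding protein, differed by -0.16 (limma adjusted p = 0.718).

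**Figure D5:**
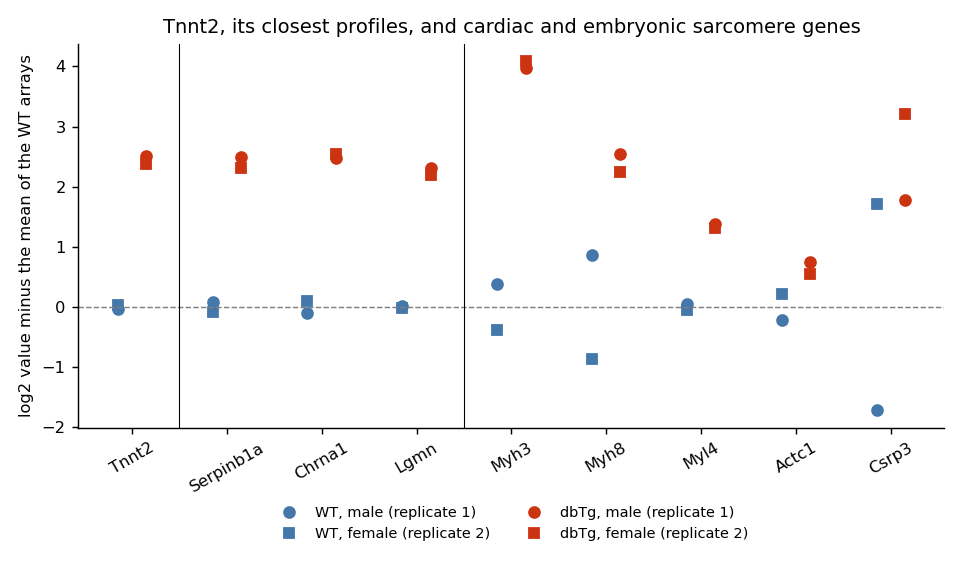
Log2 value minus the mean of the WT arrays (vertical axis) on each array, for Tnnt2, the 3 tested genes whose profile over the arrays was closest to it, and 5 cardiac and embryonic sarcomere genes. For Tnnt2 and its 3 closest profiles, both dbTg arrays lie more than 2 above the WT mean, and the WT arrays of Csrp3 lie far apart.

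The tested genes with the profile most like that of Tnnt2 over the 4 arrays were Serpinb1a, an inhibitor of neutrophil proteases, Chrna1, the alpha subunit of the muscle acetylcholine receptor, and Lgmn, a lysosomal protease of phagocytes. Likeness was the Euclidean distance of the array values after each gene was centred on its mean, and was 0.185, 0.185 and 0.213 in that order. With 4 arrays this describes the size of the genotype difference more than a pattern. Chrna1 read 3.43 and 3.63 in WT and 6.01 and 6.08 in dbTg, Serpinb1a 2.85 and 2.68 against 5.26 and 5.07, and Lgmn 4.26 and 4.23 against 6.56 and 6.44.

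Genes of muscle regeneration and denervation, and those of leukocytes, were higher in the same dbTg muscles as Tnnt2. Of 10 tested regeneration and denervation genes, 7 rose and 0 fell, with a median difference of 1.79. Over all tested genes 2.01% rose and 0.203% fell, with a median of 0.09. Of the 7, Myf5 had a WT mean of 1.19, under the filter, and was tested only through its dbTg values. The 7 became 3 after quantile normalization, 3 with the replicate number as a block and 4 with no filter. Among them, the adhesion molecule gene Ncam1 rose 8.01-fold, the transcription factor gene Runx1 6.86-fold, Chrna1 5.72-fold and the myoblast fusion gene Mymk 9.24-fold. The log2 difference of Mymk was 3.21, and became 4.06 without WT replicate 1 and 2.35 without WT replicate 2. Of 12 macrophage and leukocyte markers, 9 rose and 0 fell, with a median of 1.87, and 4 of the 12 were called with the block. The log2 of their summed linear values was 7.04 and 6.80 in WT and 9.53 and 9.32 in dbTg, and none was at 0. The part of leukocytes or of regenerating fibres in the difference of Tnnt2 was not tested. Quantile normalization or the replicate number as a block ended the call of Mymk, and also that of Myl4, while Tnnt2 stayed called under both. With either dbTg array left out, every gene of these lists lost its call except the leukocyte protease gene Ctss, so that the count over all lists went from 20 to 1.

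Markers of other cell types were also read beside Tnnt2. Of 8 markers of heart muscle, 5 were tested and 0 were called. Myh6, Myl7 and Ryr2, the atrial and ventricular myosin parts and the cardiac calcium release channel, had means under the filter, and Myh6 and Ryr2 read at most 1.19 and 1.15 on any array. Nppb, a natriuretic peptide gene of stressed heart muscle, read 1.47 ± 0.12 in WT and 3.02 ± 0.68 in dbTg (SD, n = 2 each). The difference was 1.54 (limma adjusted p = 0.0720), and 1.63 without WT replicate 2. The WT mean of Nppb lay under the filter, so it was tested only through its dbTg values. Smooth muscle markers, which include no troponin, had 0 of 6 called, with a median of 0.07. At an unadjusted limma p under 0.05, 1 of them was higher and 1 lower. Endothelial markers had 0 of 6 called and a median of -0.53, and fibroblast markers 0 of 6 and a median of 0.71. All 6 endothelial differences were negative, and 3 were lower at an unadjusted limma p under 0.05. Before adjustment 4 of the 6 fibroblast markers were higher at p under 0.05, and 3 were called without WT replicate 1 and 1 each without WT replicate 2, with median centring or at a filter of the 60th percentile. Fat markers had 2 of 4 higher, Adipoq by 1.47 and Lep by 1.31, and neither was called after quantile normalization or with the block. Lep, with a WT mean of 1.26 under the filter, was tested only through its dbTg values and lost its call with no filter (limma adjusted p = 0.0636). The 2 tested Schwann cell markers were not called. The part of these cells in the troponin values was not tested.

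Of 18 tested genes on a list of regulators of fibre type and troponin promoters, 0 passed the threshold in limma, while 2 were lower and 0 higher at p under 0.05 before adjustment, and their median was 0.09. Eya1, a transcriptional coactivator of the fast programme, read 6.92 and 6.95 in WT and 6.29 and 6.25 in dbTg (difference -0.66, limma adjusted p = 0.0775). Nfatc1, the calcineurin target of slow fibres, differed by -0.46 (limma adjusted p = 0.268). Of the TEAD genes, whose products are known to bind MCAT motifs, Tead1, Tead3 and Tead4 differed by 0.03, -0.15 and -0.09 (limma adjusted p = 0.971, 0.772 and 0.874). For Tead1 the difference was -0.53 between the males and 0.59 between the females. Myog and Myod1, whose products bind E-boxes, stand in the regeneration list and are outside the counts of this one. They differed by 2.18 and 0.72 (limma unadjusted p = 0.00746 and 0.0390, adjusted p = 0.111 and 0.238). The WT arrays of Myog lay apart, at 1.25 and 3.24, against 4.44 and 4.39 in dbTg. Myf5, another E-box binding myogenic factor of the regeneration list, rose by 1.12 (limma adjusted p = 0.0397) from a WT mean of 1.19, under the filter.

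Of 8 splicing factors known to act on troponin T transcripts, 0 were called in limma, and 1 was lower at an unadjusted p under 0.05. Mbnl1, the muscleblind protein that sets adult splicing of Tnnt2 and Tnnt3, read 8.90 and 8.91 in WT and 8.57 and 8.58 in dbTg (difference -0.33, limma adjusted p = 0.212). Rbfox1 differed by -0.25 (limma adjusted p = 0.456). The values give 1 level per gene, so exon use within the troponin T genes was not analysed here.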

How the data were processed

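The authors deposited log2 expression values, made with RMA in Affymetrix Expression Console per the labels' descriptions. RMA is a background correction, a quantile normalization and a summary over the probes of a set. The deposited values still differed in distribution by genotype, in the upper quartiles given above. Their maxima were 12.31 and 12.36 in WT and 11.99 and 11.92 in dbTg. Quantile normalization of these values took the median difference over tested genes from 0.09 to -0.0015. The cause was not tested. Neither the software version nor the annotation build is stated in the labels.

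Of 41345 rows, 23521 carried 1 symbol in the platform annotation. Each gene was represented by its brightest row over the 4 arrays (22180 genes). Tests covered the 13308 genes whose mean reached the 40th percentile, 1.48, among them all 8 troponin genes. The genotypes were compared in R 4.3.3 by limma 3.58.1, with lmFit and a trended eBayes (2 residual and 4.76 prior degrees of freedom), two-sided, with Benjamini-Hochberg adjustment over all tested genes. The procedure was tested on simulated data. The number of arrays limits the precision.

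The members, lists, tests and alternatives were chosen with earlier results of these data known. Genes named were the members, Ilf2, up to 4 called genes per list or the 2 with the smallest p, and the 3 closest profiles to each called member; others were chosen after their values were seen. Promoters came from RefSeq (GRCm38.p6). The alternatives were each array left out in turn, a block on the replicate number, and other normalizations, filters, gene summaries and variance models.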

Additional observations from a re-analysis of the deposited data

Results flagged for a closer look

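The slow troponin genes had differences of opposite sign in the males and the females. Between the male animals, dbTg minus WT was 0.95 for Tnnc1, 0.82 for Tnni1 and 0.50 for Tnnt1. Between the female animals it was -1.13, -0.41 and -0.62. Set against the fast isoform of the same subunit, the change was 0.97 for Tnnc1, 0.98 for Tnni1 and 0.53 for Tnnt1 between the male animals, and -1.07, -0.12 and -0.56 between the female animals. Opposite signs were found for 36.4% of all tested genes. With 1 animal per sex and genotype, the difference between the sexes was not tested.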

How the results depend on the processing

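Tnnt2 kept its direction under all 13 alternatives, from 2.33 after quantile normalization to 2.52, and its call under 11 (limma adjusted p from 0.000523 to 0.0900 over all). Without dbTg replicate 1 or 2 its difference was 2.38 or 2.52 and uncalled, so the count of troponin genes called higher ranged from 0 to 1 when 1 array was left out. No other troponin gene was called under any alternative run. When 1 array was left out, differences ranged from -2.27 to 2.09 for Tnnc1, -1.33 to 1.21 for Tnnt1, -0.76 to 1.17 for Tnni1, -0.12 to 0.028 for Tnnc2 and -0.078 to 0.0007 for Tnnt3, and the changes from -2.28 to 2.18 for Tnnc1 over Tnnc2, -0.61 to 1.47 for Tnni1 over Tnni2 and -1.31 to 1.28 for Tnnt1 over Tnnt3. Tnni3 was not tested with the filter at the 60th percentile.

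The replicate number is also the sex, and deviations of same-numbered arrays from their group means correlated at 0.05 across genes, so the numbers were not taken as pairs. With the replicate number as a block, Tnnt2 was called (limma adjusted p = 0.0269), 0.473% of genes were higher and 0.0150% lower, and the genes called over the other lists were 8, against 20 without the block. The block changed no call of a troponin gene. The 20 listed genes called became 12 after quantile normalization and 1 to 32 when 1 array was left out. Over all genes, 267 higher and 27 lower became 120 and 7 after quantile normalization, 325 and 44 when filtered at the 60th percentile, 165 and 7 unfiltered, 246 and 14 without an intensity trend, 63 and 2 with the block, and 4 to 610 and 0 to 156 when 1 array was left out. With 1 array left out, Tpm4 ranged from -0.070 (without dbTg replicate 2) to 0.67 and Tpm3 from -1.22 to 0.17 (without WT replicate 2), and Tpm3 was at 0.10 with the mean of its rows; the cause was not tested.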
